A study of Mus musculus with 6 samples.

Results

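The 9 genes described here define or accompany the macrophage lineage and were measured by RNA sequencing in macrophages cultured from mouse bone marrow: Csf1r, Adgre1, Cx3cr1, Ccr2, Spi1, Cebpa, Cebpb, Maf and Mpeg1. They were chosen by symbol and are 9 of the 55023 genes listed, and all 9 passed the filter on low counts. Marrow precursors give rise to these cells in culture, and each group was treated for 24 h and has 2 libraries. Total counts were 14718368 to 19049613 per library. The groups are vehicle, LT alone, and LCL161 together with LT. LT stands for LTα1β2, a lymphotoxin heterotrimer that signals through the lymphotoxin beta receptor. LCL161 is a small molecule that antagonises cIAP1 and cIAP2, members of the inhibitor of apoptosis family. None of the groups has LCL161 without LT, so its effect is compared only on top of LT. The labels give no strain, sex or age of the animals, no dose, and do not say whether the libraries of a group came from separate cultures or mice. The p-values therefore weigh differences against the spread of these libraries only, and that spread may be technical.

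Macrophages depend on signals through the CSF1 receptor, the product of Csf1r, for survival and proliferation. Their identity is set by a small group of transcription factors in which PU.1, encoded by Spi1, acts from early myeloid commitment onwards, with the C/EBP proteins working beside it. Chemokine receptors such as CCR2 and CX3CR1 mark recruited monocytes and patrolling or resident cells respectively, and MAF family factors restrain the self-renewal of mature macrophages. Bone marrow-derived macrophages are a standard culture model of these cells.

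With LT, 8 of the 9 genes changed against vehicle (6 higher and 2 lower), where 23.4% of all 18812 genes tested changed, 12.8% higher and 10.6% lower. With LCL161 added to LT, 6 changed against LT alone (1 higher and 5 lower), where 25.7% of all genes changed, 10.6% higher and 15.1% lower. Cx3cr1 and Maf fell in each comparison and Adgre1 rose in each. Csf1r and Ccr2 rose with LT and fell with LCL161 plus LT, whose libraries overlapped those of vehicle. Calls are at an adjusted p under 0.05 in edgeR's quasi-likelihood test, with Benjamini-Hochberg adjustment over all genes tested.

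Promoter sequences were available for 5 of the 9 genes, as the 250 bases before the RefSeq start site on GRCm38.p6, written 5′ to 3′ on the gene's strand. The 3 shown contrast the C/EBP genes, which are rich in G and C, with Mpeg1, which is not. They were chosen because the level of GC-rich transcripts varied with the library, as described next. The 3 windows hold no annotated exon, so their GC content is not that of the transcript. Capitals mark matches to the motifs searched.
Cebpa, chr7:35119043-35119292, plus strand: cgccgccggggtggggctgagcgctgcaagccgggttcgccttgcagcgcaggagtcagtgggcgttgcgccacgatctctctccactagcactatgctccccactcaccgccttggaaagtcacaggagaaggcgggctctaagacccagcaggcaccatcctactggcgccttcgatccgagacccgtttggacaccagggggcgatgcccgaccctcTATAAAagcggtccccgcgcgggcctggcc
Cebpb, chr2:167688665-167688914, plus strand: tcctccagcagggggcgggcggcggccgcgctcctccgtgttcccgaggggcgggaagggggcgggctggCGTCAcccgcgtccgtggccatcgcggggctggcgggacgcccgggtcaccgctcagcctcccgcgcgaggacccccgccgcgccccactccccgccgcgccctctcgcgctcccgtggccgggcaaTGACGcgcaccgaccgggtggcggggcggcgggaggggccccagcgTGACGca
Mpeg1, chr19:12460520-12460769, plus strand: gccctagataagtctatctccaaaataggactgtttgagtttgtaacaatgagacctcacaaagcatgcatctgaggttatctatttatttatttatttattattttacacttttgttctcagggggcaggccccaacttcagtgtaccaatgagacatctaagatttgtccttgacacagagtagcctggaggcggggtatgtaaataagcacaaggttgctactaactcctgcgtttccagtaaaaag
The GC content of these windows was 66.4% for Cebpa, 81.6% for Cebpb and 40% for Mpeg1, against a median of 52.4% over 32851 RefSeq promoters of this length. Cebpb stood at the 99.3rd percentile of those promoters, Cebpa at the 85.8th and Mpeg1 at the 12.5th. In Cebpb, 3 copies of the core of a cAMP response element (TGACG) were found, 1 of them on the other strand, at 180 to 176, 53 to 49 and 7 to 3 bases before the start. In Cebpa the capitals mark a TATA box (TATAAA) 30 to 25 bases before the start, and Mpeg1 held none of the motifs. Of all promoters, 17.8% hold that core and 12.4% the TATA box, on either strand. Both of these motifs were added after the sequences had been seen. The other motifs searched on both strands were a PU.1 core (GAGGAA, in 23.2% of promoters), a C/EBP site (TTGCNNAA, 9.56%), a kappaB site (1.41%), a GAS site (TTCNNNGAA, 7.02%) and an ISRE core (2.98%), and none matched in the 3 windows. No 2 matches overlap, and a match describes letters and not a bound site.

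One library stood apart and bears on every comparison with LCL161 plus LT. In replicate 1 of that group, the median log2 deviation of a gene from its mean over the 6 libraries went from 0.10 for transcripts under 40% GC to -0.39 between 60% and 65% GC and -0.50 above 65%, while in replicate 2 it stayed between -0.03 and 0.05. In the LT libraries it went the other way, from -0.04 and -0.11 to 0.26 and 0.31. Of 10971 genes with a mean of at least 5 CPM (normalised read counts on TMM-scaled library sizes), 354 were at least 2-fold higher in replicate 2 of LCL161 plus LT than in replicate 1, and 12 were at least 2-fold higher in replicate 1. The richest 200-base window of those 354 transcripts had a median GC content of 81.5%, against 66.5% over all 10971. Of the 354, 85.6% were also at least 2-fold higher in LT than in vehicle, against 9.6% of all. The cause was not tested. Each value of the 9 genes with LCL161 plus LT is therefore also given without its replicate 1. The 3 groups share 1 estimate of the spread, so the gap between these replicates also enters the errors of LT against vehicle. A fit of vehicle and LT alone called 9 of the 9 genes with LT, and 28.9% of 17418 genes tested. A correction of counts for the GC content of the whole transcript, and another for that of the richest window, were added after the data had been seen.

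**Figure D1:**
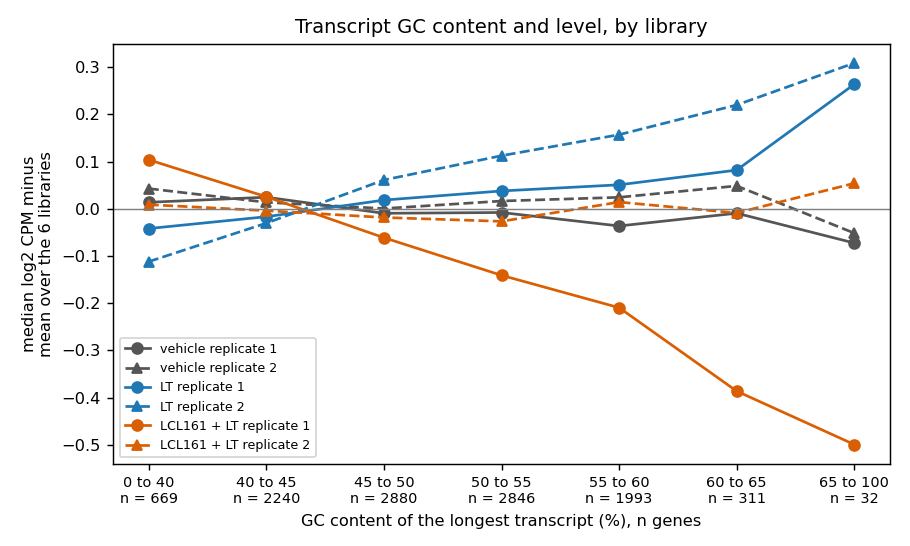
Median log2 deviation of genes from their mean over the 6 libraries (y axis), by GC content of the longest transcript in percent (x axis, with the number of genes per bin) and library (colour for group, circles and solid lines for replicate 1, triangles and dashed lines for replicate 2). Replicate 1 of LCL161 plus LT ends at -0.50 in the richest bin (32 genes) and both LT libraries end above 0.26.

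The transcripts of the 9 genes differ widely in composition. Cebpb was the richest at 67.2% GC over the transcript and 84.0% in its richest window, followed by Cebpa (62.6% and 81.5%), Spi1 (58.9% and 77.5%) and Csf1r (54.5% and 65%). Cx3cr1, Maf, Adgre1, Mpeg1 and Ccr2 lay between 50.3% and 39.4% over the transcript. Maf has the richest single window of the 9 (88.0%), which 46 of 18535 tested genes equal or exceed. The correction by richest window rests on few genes at that end.

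**Figure D2:**
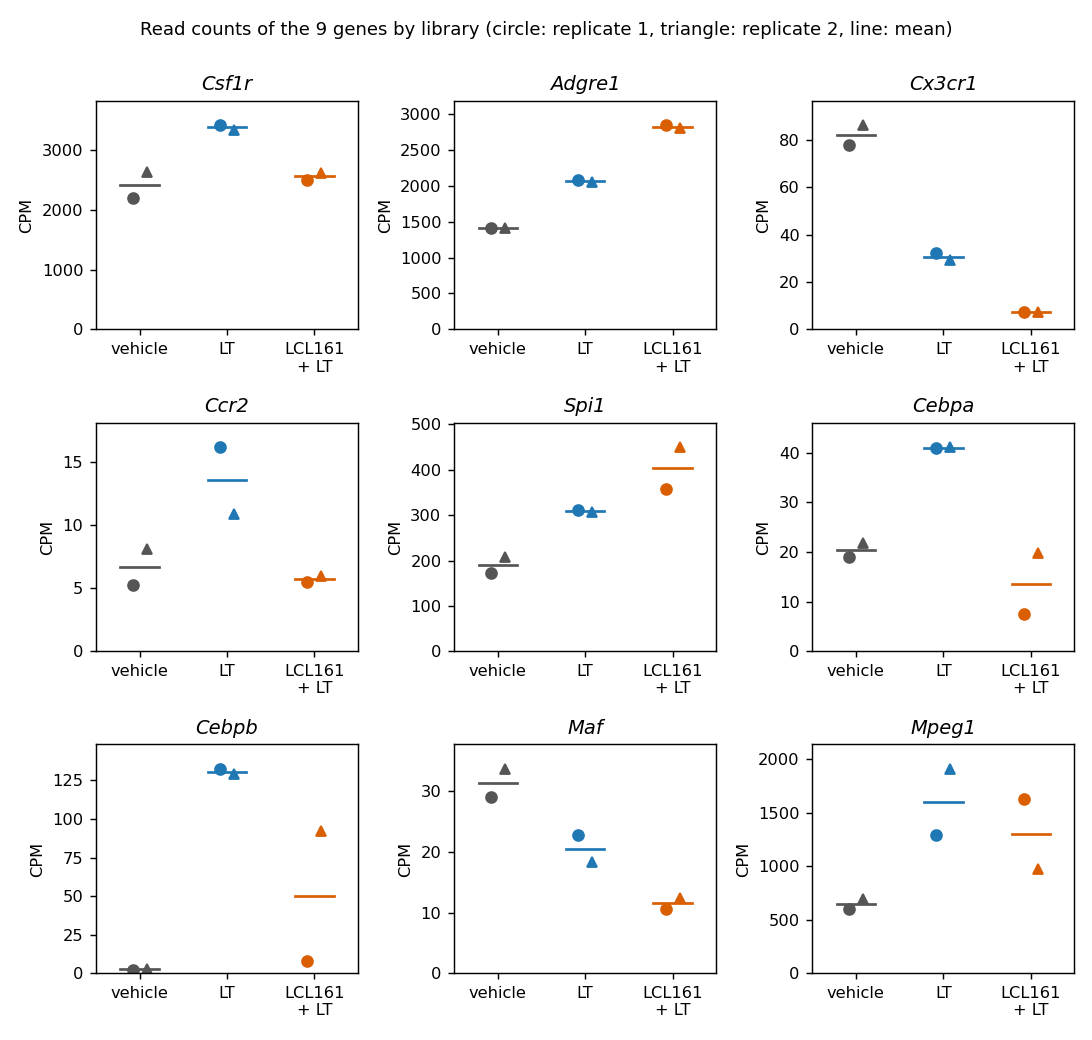
Normalised read counts (CPM, y axis from 0) of each of the 9 genes in the 6 libraries. Circles are replicate 1, triangles replicate 2 and lines the mean of 2 libraries. Cx3cr1 steps down from 82.2 to 30.8 to 7.39 CPM on average, Adgre1 steps up, and the Cebpb replicates of LCL161 plus LT lie at 7.88 and 92.4 CPM.

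Among the receptors, Cx3cr1 fell in each comparison. It encodes the receptor for fractalkine, the chemokine Cx3cl1, and lies on chromosome 9 (GRCm38, 119901616 to 120069879, minus strand). Its level was 78.0 and 86.4 CPM in vehicle, 32.3 and 29.2 CPM with LT, and 7.59 and 7.20 CPM with LCL161 plus LT. The 3 groups were far apart and their replicates close together. The log2 change was -1.42 (SE 0.11, adjusted p = 0.000147) with LT against vehicle, -2.05 (SE 0.13, adjusted p = 7.1e-05) with LCL161 plus LT against LT, and -3.47 (SE 0.13, adjusted p = 1.58e-06) against vehicle. Without replicate 1 of LCL161 plus LT the last pair of values were -2.11 (adjusted p = 0.00021) and -3.53 (adjusted p = 3.04e-06).

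Csf1r moved up and back. It encodes the receptor tyrosine kinase for CSF1 and interleukin-34 and lies on chromosome 18 (61100598 to 61132149, plus strand). Vehicle libraries held 2199 and 2633 CPM, LT libraries 3421 and 3345 CPM, and LCL161 plus LT libraries 2507 and 2621 CPM. Both LT libraries were above the 4 others, and the remaining groups overlapped. The log2 change was 0.49 (SE 0.12, adjusted p = 0.0215) with LT and -0.40 (SE 0.12, adjusted p = 0.0412) when LCL161 was added. Against vehicle, LCL161 plus LT gave 0.09 (SE 0.12, adjusted p = 0.584), and 0.10 (adjusted p = 0.658) without its replicate 1. That sign turned under scaling by total counts (-0.22), without vehicle replicate 1 (-0.089) and without replicate 2 of LCL161 plus LT (-0.014). The LT call was lost without vehicle replicate 1 (0.35, adjusted p = 0.0718), LT replicate 1 (adjusted p = 0.0751) or LT replicate 2 (adjusted p = 0.0969), and with total-count scaling (0.30, adjusted p = 0.0518). The call with LCL161 was lost when any one of the 4 libraries compared was left out, with adjusted p from 0.0601 to 0.146. The change was -0.39 (adjusted p = 0.146) without replicate 1 of LCL161 plus LT and -0.29 (adjusted p = 0.103) after GC correction.

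Adgre1 rose at each step. It encodes F4/80, the adhesion G protein-coupled receptor used as a surface marker of mouse macrophages (chromosome 17, 57358691 to 57483527, plus strand). The counts were 1406 and 1407 CPM in vehicle, 2080 and 2052 CPM with LT, and 2841 and 2800 CPM with LCL161 plus LT. The groups did not overlap and replicates lay close together. Its log2 change was 0.55 (SE 0.09, adjusted p = 0.0051) with LT, 0.45 (SE 0.09, adjusted p = 0.0111) from LT to LCL161 plus LT, and 1.0 (SE 0.09, adjusted p = 0.000107) from vehicle to LCL161 plus LT. The first and the last of these calls held without each of the libraries compared. The step from LT to LCL161 plus LT lost its call when any one of the 4 libraries was left out (adjusted p from 0.0667 to 0.107). It was 0.42 (adjusted p = 0.0667) without replicate 1 of LCL161 plus LT, 0.40 (adjusted p = 0.0109) after correction by transcript GC and 0.12 (adjusted p = 0.438) after correction by richest window. The change from vehicle was 0.98 (adjusted p = 0.000598) without that library.

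Ccr2, which encodes the receptor for the monocyte chemoattractant Ccl2, was the least expressed of the 9 genes per length (chromosome 9, 124101950 to 124113557, plus strand). It had 5.28 and 8.11 CPM in vehicle, 16.2 and 10.9 CPM with LT, and 5.47 and 5.97 CPM with LCL161 plus LT, which rests on 75.0 to 254.5 reads per library. Both LT libraries lay above the other 4, although they differed from each other 1.49-fold. The fitted log2 change was 1.02 (SE 0.26, adjusted p = 0.0262) with LT and -1.24 (SE 0.27, adjusted p = 0.0141) when LCL161 was added. LCL161 plus LT did not differ detectably from vehicle (-0.22, SE 0.28, adjusted p = 0.554), and that sign turned without vehicle replicate 2 (0.068). The LT call was lost without vehicle replicate 1 (0.73, adjusted p = 0.159) or LT replicate 1 (0.79, adjusted p = 0.125), and the decrease with LCL161 without LT replicate 1 (-0.995, adjusted p = 0.0522). Without replicate 1 of LCL161 plus LT the decrease was -1.19 (adjusted p = 0.047) and the change from vehicle -0.17 (adjusted p = 0.739).

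Among the transcription factors, Spi1 rose with LT. Its product PU.1 activates many macrophage genes, Csf1r among them (chromosome 2, 91082390 to 91115756, plus strand). Levels were 172 and 209 CPM in vehicle, 312 and 308 CPM with LT, and 358 and 450 CPM with LCL161 plus LT, with no overlap between groups. On the log2 scale the change was 0.70 (SE 0.14, adjusted p = 0.0104) with LT and 1.09 (SE 0.14, adjusted p = 0.000637) with LCL161 plus LT against vehicle. The step from LT to LCL161 plus LT, 0.38 (SE 0.14, adjusted p = 0.0819), did not pass. That step was 0.52 without replicate 1 of LCL161 plus LT but 0.14 without replicate 2, and 0.33 and 0.34 without LT replicates 1 and 2. It passed after correction by transcript GC (0.63, adjusted p = 0.00532) and did not under total-count scaling (0.26, adjusted p = 0.131). Against vehicle the value without replicate 1 of LCL161 plus LT was 1.23. The LT call was lost without vehicle replicate 1 (0.57, adjusted p = 0.077) or LT replicate 2 (adjusted p = 0.0571).

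Of the 9 genes, Cebpb had the largest increase with LT and the widest gap between replicates with LCL161 plus LT. It encodes C/EBPβ, a basic leucine zipper factor of inflammatory macrophage genes, and is a single-exon gene on chromosome 2 (167688915 to 167690418, plus strand), directly after the GC-rich promoter shown above. Vehicle libraries held 2.45 and 3.03 CPM, which are 53 and 56 reads, and LT libraries 132 and 129 CPM. With LCL161 plus LT the replicates held 7.88 and 92.4 CPM, 108 and 1206.5 reads. Replicate 2 was thus 11.7-fold above replicate 1, the widest gap between these replicates among the 10971 genes of at least 5 CPM. The LT change was 5.58 (SE 1.02, adjusted p = 0.00734), and 5.61 (adjusted p = 3.75e-07) in a fit of vehicle and LT alone. It became 5.46 (adjusted p = 0.00446) after correction by transcript GC and 4.90 (adjusted p = 0.00278) by richest window. That call was lost without vehicle replicate 1 (5.42, adjusted p = 0.059) and in a fit robust to outlying genes (adjusted p = 0.0615).

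For LCL161 plus LT the level of Cebpb depended on the replicate. Against LT the log2 change was -1.38 (SE 0.80, adjusted p = 0.232), which was -0.52 (adjusted p = 0.0288) without replicate 1 and -4.11 (adjusted p = 8.8e-06) without replicate 2. Against vehicle it was 4.19 (SE 0.99, adjusted p = 0.0126), which was 5.06 (adjusted p = 2.89e-07) without replicate 1 and 1.46 (adjusted p = 0.000639) without replicate 2. Each of these single-library values takes the spread from the other groups. The increase over vehicle lost its call without vehicle replicate 1 (4.0, adjusted p = 0.0738) or vehicle replicate 2 (4.31, adjusted p = 0.0587), with limma voom (3.28, adjusted p = 0.0904) and in the robust fit (adjusted p = 0.0788). Exons of Tmem189 overlap Cebpb on the other strand, and the use of strand in counting is not given. Tmem189 had 64.0 and 84.0 CPM in vehicle, 168 and 157 CPM with LT, and 96.2 and 205 CPM with LCL161 plus LT, so its replicates also diverged in that group.

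Cebpa also differed between the LCL161 plus LT replicates, 2.65-fold. It encodes C/EBPα, which acts with PU.1 in myeloid commitment, and is a single-exon gene on chromosome 7 (35119293 to 35121928, plus strand). Its level was 19.1 and 21.8 CPM in vehicle, 41.0 and 41.2 CPM with LT, and 7.44 and 19.8 CPM with LCL161 plus LT. LT libraries lay above all others, and LCL161 plus LT overlapped vehicle through its replicate 2. With LT the log2 change of 1.01 (SE 0.34, adjusted p = 0.0738) did not pass. It did in DESeq2 (adjusted p = 0.0226), in limma voom (adjusted p = 0.0277) and after correction by transcript GC (0.93, adjusted p = 0.0356). It also passed in a fit of vehicle and LT alone (1.04, adjusted p = 0.000391), where the gap between the LCL161 plus LT replicates does not enter the spread. After correction by richest window it was 0.53 (adjusted p = 0.137). The LT change also did not pass in the robust fit (adjusted p = 0.166) or with any 1 of the 4 libraries compared left out (0.90 to 1.10). From LT to LCL161 plus LT Cebpa fell by 1.60 on the log2 scale (SE 0.36, adjusted p = 0.0161). That decrease was -1.07 (adjusted p = 0.0019) without replicate 1 of LCL161 plus LT and -2.53 (adjusted p = 5.44e-05) without replicate 2. It lost its call without LT replicate 2 (adjusted p = 0.0711) and in the robust fit (adjusted p = 0.0571). Against vehicle the change was -0.59 (SE 0.36, adjusted p = 0.225), near 0 without replicate 1 (-0.06, adjusted p = 0.775) and -1.52 (adjusted p = 0.000282) without replicate 2.

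Maf fell with LT and fell further with LCL161. It encodes c-MAF, a basic leucine zipper factor of mature macrophages (chromosome 8, 115682942 to 115707794, minus strand). Levels were 29.1 and 33.6 CPM in vehicle, 22.7 and 18.3 CPM with LT, and 10.7 and 12.5 CPM with LCL161 plus LT. The groups did not overlap. The log2 change was -0.61 (SE 0.16, adjusted p = 0.0263) with LT, -0.82 (SE 0.16, adjusted p = 0.00976) from LT to LCL161 plus LT, and -1.44 (SE 0.16, adjusted p = 0.000315) from vehicle to LCL161 plus LT. Without replicate 1 of LCL161 plus LT the last pair of values was -0.73 (adjusted p = 0.0358) and -1.34 (adjusted p = 0.000933). The LT call was lost when any one of the 4 libraries compared was left out (adjusted p from 0.0628 to 0.171). After correction by richest window the LT change was -1.62 (adjusted p = 0.000757) and the step from LT to LCL161 plus LT -0.04 (adjusted p = 0.919), while correction by transcript GC gave -0.63 (adjusted p = 0.0219) and -0.87 (adjusted p = 0.00745).

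The effector gene Mpeg1 rose with LT. It encodes perforin-2, a pore-forming protein that macrophages direct against ingested bacteria (chromosome 19, 12460779 to 12465283, plus strand). It had 602 and 691 CPM in vehicle, 1295 and 1910 CPM with LT, and 1632 and 976 CPM with LCL161 plus LT. All 4 treated libraries exceeded vehicle, and the treated groups overlapped, with replicates that differed 1.48-fold and 1.67-fold. Here replicate 1 of LCL161 plus LT was the higher one. Fitted log2 changes were 1.31 (SE 0.26, adjusted p = 0.0108) with LT, -0.30 (SE 0.26, adjusted p = 0.419) from LT to LCL161 plus LT, and 1.01 (SE 0.26, adjusted p = 0.0182) from vehicle to LCL161 plus LT. Without replicate 1 of LCL161 plus LT the last pair was -0.74 (adjusted p = 0.0664) and 0.58 (adjusted p = 0.0818). The LT call was lost without vehicle replicate 1 (1.21, adjusted p = 0.0663) or LT replicate 2 (0.99, adjusted p = 0.0609). The call against vehicle was also lost without vehicle replicate 1 (0.86, adjusted p = 0.0996) or vehicle replicate 2 (1.06, adjusted p = 0.0516), with total-count scaling (0.72, adjusted p = 0.0612), and after correction by richest window (0.68, adjusted p = 0.0575).

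**Figure D3:**
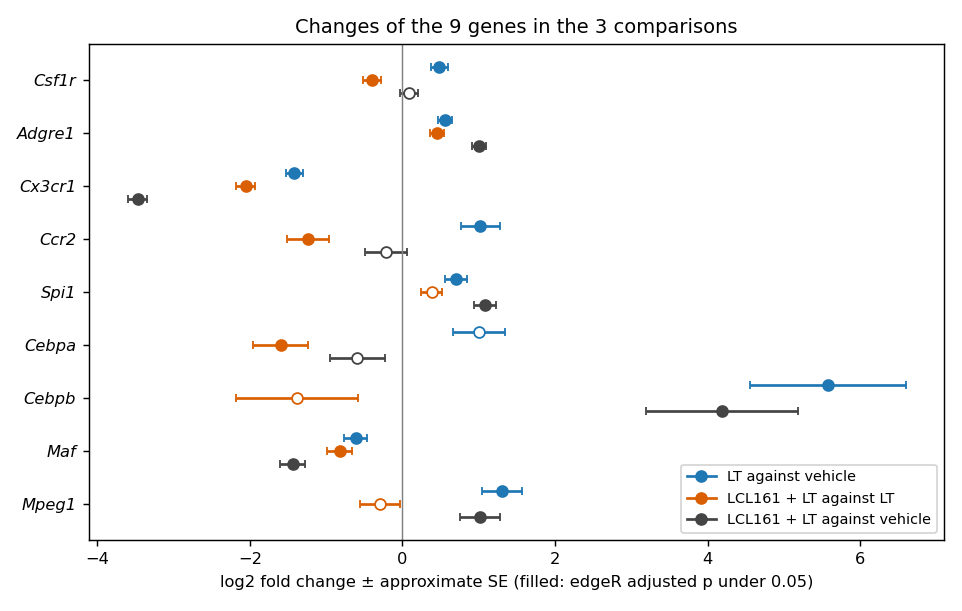
Log2 fold change with its approximate SE (x axis) of the 9 genes (y axis) in the 3 comparisons, in edgeR with all 6 libraries. Filled points have an adjusted p under 0.05. Cx3cr1 and Maf lie left of 0 in all 3 comparisons, Adgre1 lies right of 0 in all 3, and Cebpb has the widest error bars (SE 0.80 to 1.02).

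Over the 9 genes together, the median log2 change was 0.70 with LT, against -0.04 over all genes tested, -0.82 from LT to LCL161 plus LT, against 0.0045 over all, and 0.09 from vehicle to LCL161 plus LT, against 0.05 over all. In the last comparison 6 changed, 4 higher (Adgre1, Spi1, Cebpb and Mpeg1) and 2 lower (Cx3cr1 and Maf), where 39.5% of all genes changed, 18.4% higher and 21.1% lower. The groups did not overlap for 9 genes with LT, 8 from LT to LCL161 plus LT and 6 from vehicle to LCL161 plus LT. Over all genes the share without overlap was 63.4%, 67.8% and 73.8%. Leaving out replicate 1 of LCL161 plus LT left 6 calls from LT to LCL161 plus LT, with Spi1 and Cebpb in and Csf1r and Adgre1 out. It left 5 against vehicle, with Mpeg1 out. Those fits called 17.0% and 31.3% of all genes. The LT calls numbered 2 without vehicle replicate 1 (Adgre1 and Cx3cr1), 4 without LT replicate 2 and 5 without LT replicate 1, in fits that called 9.21%, 11.8% and 11.3% of all genes. Comparisons that share a group are not independent. Scaling by total counts moved the median of all genes to -0.23, -0.12 and -0.26. The share of called genes that were higher went from 54.8% to 33.0%, from 41.2% to 28% and from 46.6% to 24.6% in the order of comparisons above.

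**Figure D4:**
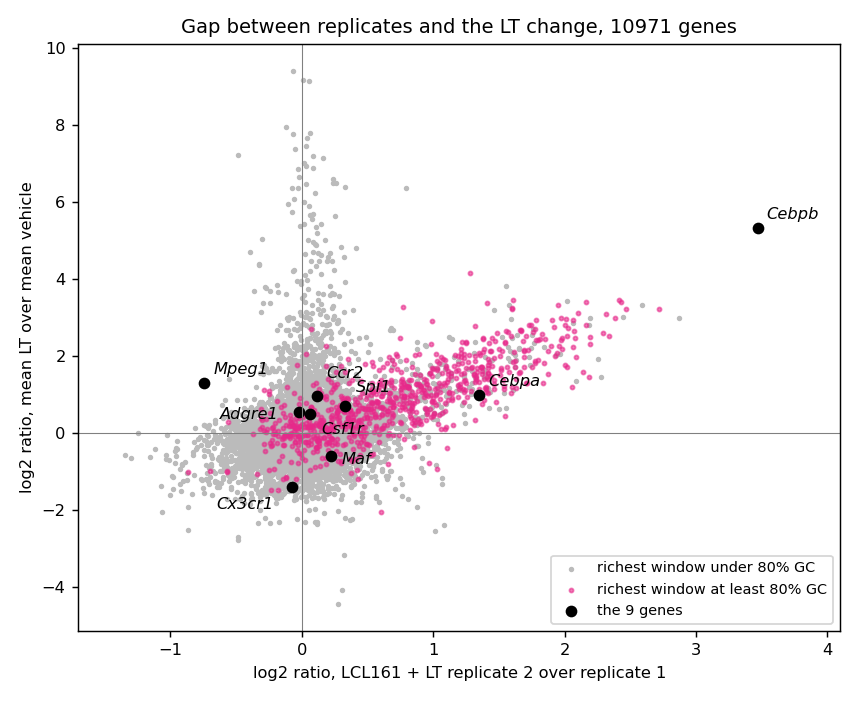
Each point is 1 of 10971 genes with a mean of at least 5 CPM. The x axis is the log2 ratio of replicate 2 over replicate 1 of LCL161 plus LT, the y axis the log2 ratio of mean LT over mean vehicle (both with 0.5 CPM added), pink points have a 200-base window of at least 80% GC and black points are the 9 genes. Cebpb lies farthest to the right of all genes at 3.47, with Cebpa also to the right and Mpeg1 to the left of 0.

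Levels of different genes were compared as CPM per kilobase of merged exon. In vehicle the order was Adgre1 (434.5 ± 0.183, SD, n = 2), Csf1r (418 ± 53.2), Mpeg1 (149 ± 14.5), Spi1 (70.7 ± 9.48), Cx3cr1 (18.2 ± 1.31), Cebpa (7.76 ± 0.741), Maf (3.80 ± 0.390), Cebpb (1.82 ± 0.269) and Ccr2 (0.990 ± 0.296). The first pair did not differ beyond its spread, and each later neighbour did. With LT, Cebpb moved up from the eighth place to the fifth at 86.8 ± 1.64 (SD, n = 2), and Cebpa (15.6 ± 0.0533) moved ahead of Cx3cr1 (6.83 ± 0.478). Maf (2.49 ± 0.380) and Ccr2 (2.01 ± 0.555) overlapped there. With LCL161 plus LT the same order held, from Adgre1 at 871 ± 8.75 (SD, n = 2) and Csf1r at 444 ± 14.0 to Ccr2 at 0.847 ± 0.0524. In that group Cebpb (33.3 ± 39.7), Mpeg1 (301 ± 107) and Cebpa (5.16 ± 3.30) had the widest spread relative to their means, and Cx3cr1 (1.64 ± 0.0612) and Maf (1.40 ± 0.157) were close. Cebpb was 5.24 and 61.4 in its replicates and Cebpa 2.82 and 7.5, so these neighbours overlapped.

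The partners of these genes were read from lists of related genes, none of which holds the 9 themselves. The 23 called values of named genes in comparisons with LCL161 plus LT include the stromal marker Acta2. Most were named for small p-values in these same data, so their holding is no independent check. Without replicate 1 of LCL161 plus LT they moved by at most 0.42 on the log2 scale, and F13a1 against LT (-1.35) lost its call. Without that library the list medians from LT to LCL161 plus LT were -0.22 for CSF1 receptor signalling, 0.14 for chemokines, -1.1 for the C/EBP list and 0.68 for pore-forming genes, each with as many calls as before, and -0.34 for surface genes (5 higher, 9 lower) and -0.88 for monocyte genes (2 higher, 6 lower). In the list of CSF1 receptor ligands and signalling, 6 of 12 genes rose and 1 fell with LT, and 1 rose and 3 fell when LCL161 was added. The list medians were 0.39 and -0.16, where the medians of all genes were -0.04 and 0.0045. Under total-count scaling 4 rose and 1 fell with LT (median 0.20), and 1 rose and 3 fell with LCL161 (median -0.27). The ligand Csf1 fell at each step, from a mean of 1022 CPM in vehicle to 574 CPM and 298 CPM, with log2 changes of -0.83 (adjusted p = 0.00257) and -0.94 (adjusted p = 0.00126). Ptpn6, the phosphatase SHP-1, rose with LT by 1.27 (adjusted p = 0.000244). The phosphatase gene Inpp5d (SHIP1) fell by 0.87 on the log2 scale when LCL161 was added (adjusted p = 0.000956), and the kinase Src rose by 2.58 (adjusted p = 0.000311). Among 11 chemokine ligands, receptors and sheddases, 7 rose and 1 fell with LT (median 0.86), and 2 rose and 4 fell with LCL161 (median 0.06). Under total-count scaling 5 rose and 1 fell with LT (median 0.67), and 2 rose and 5 fell with LCL161 (median -0.07). Ccr1, another inflammatory chemokine receptor, also rose with LT (0.90, adjusted p = 0.00231) and fell with LCL161 (-1.0, adjusted p = 0.00131). Cx3cl1, the Cx3cr1 ligand, fell by 1.29 with LCL161 on the log2 scale (adjusted p = 0.00248), and of its sheddases Adam17 rose by 1.04 (adjusted p = 0.000278) and Adam10 fell by 0.59 on the log2 scale (adjusted p = 0.0226). The Adam10 call was lost without LT replicate 1 (adjusted p = 0.0788) and after correction by richest window (adjusted p = 0.0555). Ccl2, the Ccr2 ligand and named here for that role, was 1.21 higher on the log2 scale with LCL161 plus LT than with vehicle (adjusted p = 0.00859), which was lost without vehicle replicate 2 (adjusted p = 0.0602).

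Of 25 other myeloid transcription factors, 4 rose and 6 fell with LT, and 11 rose and 8 fell when LCL161 was added (8 and 8 without replicate 1 of LCL161 plus LT). Their medians were -0.17 and 0.36, and the second was 0.29 without that library and 0.096 after GC correction. Under total-count scaling 3 rose and 11 fell with LT, and 9 rose and 10 fell with LCL161. Irf8, a partner of PU.1, rose with LT by 1.75 (adjusted p = 0.000224). Bhlhe40 and Spic fell with LT (-1.16, adjusted p = 0.000244, and -1.6, adjusted p = 0.00267), and both rose with LCL161 (2.01, adjusted p = 3.2e-05, and 3.03, adjusted p = 0.00016). Id3, an inhibitor of basic helix-loop-helix factors, fell by 2.28 on the log2 scale with LCL161 (adjusted p = 3.7e-05). In the C/EBP list of 7 genes, 0 rose and 2 fell with LT, and 1 rose and 3 fell with LCL161 (0 and 3 under total-count scaling). The list's median was 0.02 with LT (-0.17 under total-count scaling) and -1.26 with LCL161. Those that fell with LCL161 were Cebpd (-1.33, adjusted p = 0.0035) and the Tribbles genes Trib1 (-1.26, adjusted p = 0.000445) and Trib2 (-1.46, adjusted p = 0.00681), whose products target C/EBPα for degradation. Trib1 and Trib2 were also the genes that fell with LT (-0.45, adjusted p = 0.0276, and -1.16, adjusted p = 0.00851). The Trib1 call with LT was lost when any one of the 4 libraries was left out (adjusted p from 0.134 to 0.173), and the Trib2 call without vehicle replicate 1 (adjusted p = 0.0622) or LT replicate 1 (adjusted p = 0.0537).

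In the MAF list, 3 of 7 genes tested rose and 0 fell with LT, and 3 rose and 1 fell with LCL161 (1 and 1 without replicate 1 of LCL161 plus LT). Its medians were 0.37 and -0.03, and the second was 0.21 without that library and 0.084 after GC correction. Under total-count scaling 2 rose and 3 fell with LCL161. The small MAF gene Maff rose with LCL161 by 1.63 (adjusted p = 0.00905), and that call was lost without LT replicate 1 (adjusted p = 0.0521) or LT replicate 2 (adjusted p = 0.0608).

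Of 29 other macrophage surface and effector genes tested, 12 rose and 6 fell with LT (median 0.19), or 9 and 8 under total-count scaling (median 0.0018), and 5 rose and 10 fell with LCL161 (median -0.24). Fcgr1, the high-affinity IgG receptor CD64, rose with LT by 2.57 (adjusted p = 3.79e-06) and fell by 0.90 on the log2 scale with LCL161 (adjusted p = 0.00047). Fcrls fell by 2.34 with LT (adjusted p = 6.79e-06) and Mrc1, the mannose receptor, by 2.49 with LCL161 (adjusted p = 8.71e-05), both on the log2 scale. Among 13 monocyte genes tested, 3 rose and 5 fell with LT, although the median was 0.62, and 2 rose and 7 fell with LCL161 (median -0.65). Ly6c2, a marker of classical monocytes, rose with LT by 2.88 (adjusted p = 2.46e-05), while F13a1, the coagulation factor XIII A chain, fell by 4.15 on the log2 scale (adjusted p = 8.04e-05). Of the 3 pore-forming genes tested beside Mpeg1, Gsdmd (gasdermin D) and Ninj1 rose with LT (1.69, adjusted p = 5.15e-05, and 0.76, adjusted p = 0.0145). Gsdmd and Ninj1 both rose again with LCL161, Gsdmd by 0.60 (adjusted p = 0.00603), and Gsdme fell by 1.06 on the log2 scale (adjusted p = 0.00267). The Ninj1 call with LT was lost without vehicle replicate 1 (0.55) or LT replicate 2 (0.73), and the second Gsdmd call without LT replicate 1 (0.48). The second Ninj1 call was lost without LT replicate 1 (0.65), LT replicate 2 (0.73) or LCL161 plus LT replicate 2 (0.51).

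**Figure D5:**
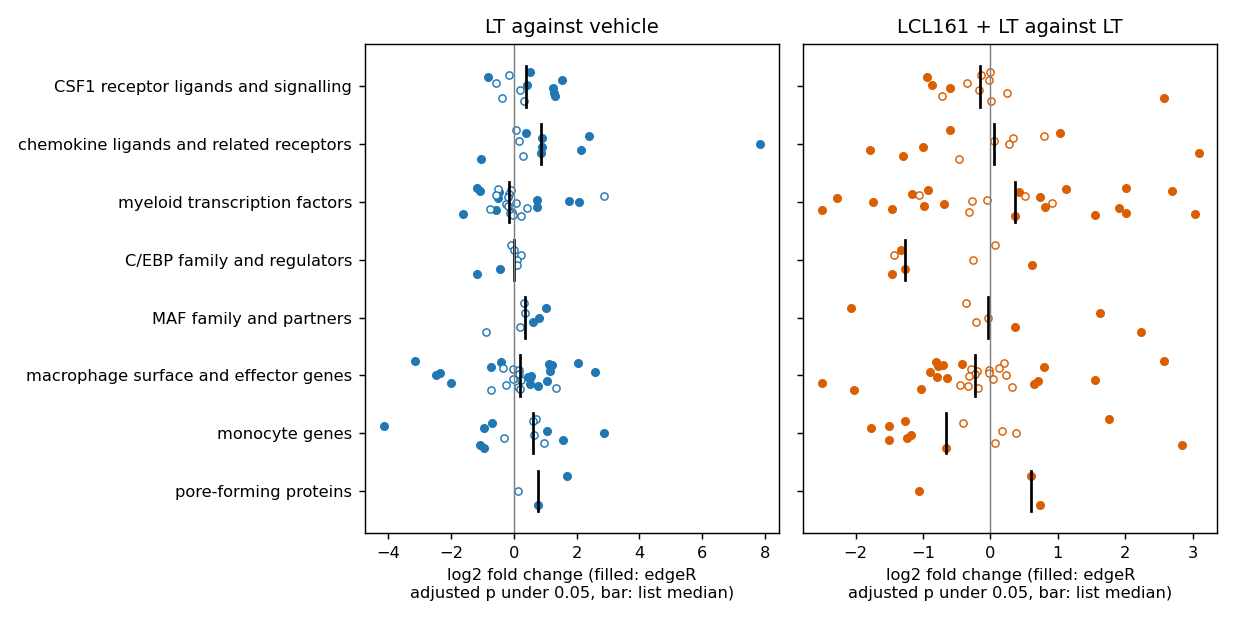
Log2 fold changes (x axis) of the genes of 8 lists (y axis) with LT against vehicle on the left and with LCL161 plus LT against LT on the right, without the 9 genes themselves. Each point is a gene, filled where the adjusted p is under 0.05, and bars are list medians, such as 0.39 and -0.16 for CSF1 receptor signalling and 0.02 and -1.26 for the C/EBP list.

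Genes with the most similar pattern over the 6 libraries were found by the root-mean-square difference of centred log2 CPM, among genes with a mean of at least 5 CPM. Csf1r was nearest to Spast (0.02) and Nfam1 (0.04), Adgre1 to Prdm1 (0.03) and Atp1b3 (0.03), and Spi1 to Gtf2ird2 (0.04) and Rac2 (0.05). These 6 genes came closest to the gene they follow. Maf was nearest to Tpcn1 (0.08) and Suox (0.08), Cx3cr1 to St6gal1 (0.09) and Galnt18 (0.13), and Ccr2 to Sirpb1b (0.12) and Fcgr3 (0.14). Cebpa was nearest to Sbk1 (0.11) and Mxi1 (0.16), and Mpeg1 to Pml (0.24) and Hectd4 (0.24). Cebpb had no close match: its nearest genes, Otud1 and Dapk3, differed by 0.81 and 0.88. Otud1, Dapk3, Sbk1 and Mxi1 had lower counts in replicate 1 than in replicate 2 of LCL161 plus LT, for example 2.63 and 16.2 CPM for Dapk3. These libraries were part of the search, so that gap follows from how the genes were picked.

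Markers of macrophages were present in every library, with Lyz2 at 25166, 24721 and 25363 CPM and Cd68 at 1067, 1210 and 1188 CPM on average in vehicle, LT and LCL161 plus LT. The other macrophage markers were not level. In the same order Itgam stood at 313, 431 and 248 CPM, Fcgr1 at 32.8, 196 and 105 CPM, and Mertk at 177, 371 and 605 CPM. Itgam, Fcgr1 and Mertk each changed in every comparison. Markers of other cells moved beside the 9 genes. The summed level of 13 stromal markers, led by Acta2, was 7515 to 10927 CPM in vehicle, 2950 to 4109 CPM with LT and 845 to 878 CPM with LCL161 plus LT, and 8 of the 12 tested fell in each comparison. The 9 dendritic cell markers, led by Itgax, summed to 24.0 to 29.6, 47.6 to 48.4 and 117 to 132 CPM. Only 2 of them had a mean of at least 5 CPM, and 5 rose and 0 fell from vehicle to LCL161 plus LT. The 11 neutrophil markers, led by S100a8, summed to 665 to 971, 1082 to 1313 and 564 to 595 CPM. Of these, 5 rose and 1 fell (Retnlg) with LT. From vehicle to LCL161 plus LT, 2 rose (Ly6g and Csf3r) and 7 fell. The 8 osteoclast markers, led by Mmp9, summed to 275 to 285, 170 to 172 and 260 to 262 CPM. From vehicle to LCL161 plus LT, 3 of the 7 tested rose (Acp5, Ocstamp and Dcstamp) and 3 fell (Ctsk, Atp6v0d2 and Itgb3), which the sum does not show. The 6 B cell markers, of which Ebf1 was the most abundant, summed to 35.9 to 37.3, 19.9 to 21.5 and 12.9 to 17.2 CPM. Of the 5 tested, Ebf1 was the only 1 that fell in any comparison, and Ms4a1 rose from vehicle to LCL161 plus LT. Their median log2 change against vehicle was 0.30 with LT and 0.46 with LCL161 plus LT, so the sum follows Ebf1 and not the list. Markers of T and NK, erythroid, mast and endothelial cells summed to at most 17.7 CPM per list in any library. No marker was at 0 in all libraries. The part of these cells in the changes of the 9 genes, and of list genes such as Csf1 and Cx3cl1, was not tested. In bulk RNA fewer cells of a type and less RNA per cell cannot be told apart.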

How the data were processed

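RNA was sequenced in 6 libraries, 2 per group, grouped by sample title. The authors deposited expected counts per gene, unnormalised, with 66.6% of non-zero values whole (no decimals at all). STAR 2.7.3a, DESeq2 1.26.0 and GRCm38 are named per the submitters' processing notes. For the counting program, annotation and strand the sources used here give nothing. Total counts were 14718368 to 19049613 per library, at which 3 reads are 0.139 to 0.23 CPM.

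Counts were rounded and fitted in edgeR 4.0.16 (R 4.3.3) with filterByExpr, which left 18812 genes, TMM factors and a group-means quasi-likelihood model over all 6 libraries, with two-sided tests and Benjamini-Hochberg adjustment. Standard errors are the log2 change divided by the root of the F statistic. Genes varied between replicates by 13.6% (biological coefficient of variation), on 3 residual degrees of freedom. Positions and exon lengths come from GENCODE M21, promoters from RefSeq. GC content was known for 98.5% of genes tested.

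The 9 genes and the lists were chosen with earlier results of these data known. Named beside them are up to 3 genes per list and comparison with the smallest p, members of lists with at most 5 calls, the 2 nearest patterns per gene and each other cell type's most abundant marker. A few genes selected this way are not reported here. Alternatives were other scalings, filters and fits, DESeq2 1.42.0, limma 3.58.1, a replicate block and leaving out each library.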

Additional observations from a re-analysis of the deposited data

How the results depend on the processing

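Over 27 values (9 genes in 3 comparisons) and 16 alternatives at most per value, 372 of 432 kept direction and side of the threshold, 41 lost the call, 15 gained it and 4 turned sign. The 4 were Csf1r with LCL161 plus LT against vehicle under total-count scaling (-0.22), without vehicle replicate 1 (-0.089) and without LCL161 plus LT replicate 2 (-0.014), and Ccr2 in that comparison without vehicle replicate 2 (0.068). Over the libraries left out, these ranged from -0.089 to 0.17 for Csf1r and from -0.55 to 0.068 for Ccr2. Leaving out each compared library in turn, the LT comparison gave 1930 to 2807 called genes (4401 with all libraries) and 2 to 7 of the 9 genes. LCL161 plus LT against LT gave 2332 to 4604 called genes (4832 with all libraries) and 3 to 6 of the 9. LCL161 plus LT against vehicle gave 4885 to 6304 called genes (7431 with all libraries) and 4 to 7 of the 9. The lone library of a group is then assumed to vary like the other groups. Replicate numbers share no stated origin: deviations of same-numbered libraries correlated at 0.14, 0.16 and 0.09. With the replicate block, 4144, 4629 and 7308 genes and 8, 6 and 6 of the 9 were called. Without a filter beyond 1 read, LCL161 plus LT against LT called 8 of the 9 and 6720 of 47056 genes (14.3%). That fit called Cebpb (-1.51, adjusted p = 9.87e-23) although its LCL161 plus LT replicates differed 11.7-fold. It also moved the median of all genes to 0.21, so its calls carry less weight, although they are among the 432. The cause was not tested.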
